A study of Mus musculus with 15 samples.

Results

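The genes described here are 39 genes of fatty acid use: the peroxisome proliferator-activated receptors (PPARs) and their coactivators, textbook PPAR target genes, and the enzymes of mitochondrial and peroxisomal fatty acid oxidation with 1 enzyme of ketone body metabolism. They were chosen by symbol, all 39 had a row among the 32939 genes of the deposited table, and all 39 passed the filter on low counts. RNA of colonic crypts, the gland-like pits of the colon lining, was measured in 15 libraries from WT mice, 5 in each of 3 groups. FL-shAlpl mice had a CDAA diet, a fatty liver and AAV-shAlpl, a viral vector carrying a short hairpin RNA against Alpl, the gene of tissue-nonspecific alkaline phosphatase. FL-shGFP mice had the CDAA diet, a fatty liver and AAV-shGFP, the control hairpin. NL-shGFP mice had a normal diet, a normal liver and AAV-shGFP. CDAA is the usual short name of choline-deficient, L-amino acid-defined feed. All groups thus carried a vector, diet and liver condition changed together and cannot be told apart, and no group with a normal liver received AAV-shAlpl. Age, sex, the tissue the vector reached and whether libraries are separate animals are not given in the labels, so p-values measure the spread between these libraries, which may be technical.

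Levels are TMM-scaled FPKM, the deposited FPKM (reads scaled for gene length and library size) divided by each library's scaling factor (trimmed mean of M-values, TMM), given for replicates 1 to 5 in that order, and ± beside a level is the SD (n = 5). Fold changes are on the log2 scale with their standard error. A gene was called where the edgeR quasi-likelihood test gave an adjusted p, over all 17404 genes tested, below 0.05. Library totals were 42.1 to 58.6 M counts in FL-shAlpl, 37.5 to 51.7 M in FL-shGFP and 33.3 to 41.4 M in NL-shGFP, and mitochondrially encoded genes took 19.9% ± 4.03, 16.7% ± 3.32 and 33.2% ± 3.98 of them in that group order. Alpl had 6, 2, 2, 2 and 0 counts in FL-shAlpl, 15, 14, 18, 25 and 23 in FL-shGFP and 0, 2, 0, 0 and 0 in NL-shGFP. Markers of colon epithelium (Epcam, Cdx2 and Krt20) were present in all 15 libraries, while the hepatocyte gene Alb stayed at or below 0.243. The sums of 6 hepatocyte genes, 1.85 to 11.5 over the 15 libraries, were mostly Ttr, which ranged over 4.31 to 8.43 in FL-shAlpl, 1.77 to 11.3 in FL-shGFP and 2.32 to 6.95 in NL-shGFP. FL-shGFP replicates 3 and 5 stood apart from replicates 1, 2 and 4 for many of the genes below, so results that rest on them are given with and without them, an alternative chosen after the values were seen. P-values of that alternative follow from this choice and are descriptive only.

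As background, PPARs are nuclear receptors that bind fatty acids and, paired with a retinoid X receptor, switch on genes for taking up, storing and burning fat. Long-chain fatty acids enter mitochondria as carnitine esters and are shortened there by repeated rounds of beta-oxidation, whose electrons pass through the electron transfer flavoprotein to the respiratory chain. Peroxisomes shorten very long chains by a parallel set of enzymes. Colonocytes are known for burning butyrate, a short-chain fatty acid made by gut bacteria, through the same mitochondrial route, and for making ketone bodies from it.

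Promoter sequence is shown for 5 members whose RNA was higher in FL-shGFP than in NL-shGFP, because PPARs act through a DNA element, a direct repeat of AGGTCA with 1 base between the repeats. RefSeq promoters (build GRCm38.p6, 250 bases before to 50 bases after the annotated start) were matched by symbol for 34 of the 39 members. Fabp1 (chr6:71199629-71199928, plus strand) is shown with the relaxed form of the repeat in capitals, where the fourth base of each copy is free. Plin2 (chr4:86670010-86670309, minus strand) and Cpt1a (chr19:3323051-3323350, plus strand) have the single repeat in capitals. Pdk4 (chr6:5496229-5496528, minus strand) and Slc25a20 (chr9:108661886-108662185, plus strand) hold none of these letters in the window. All are written 5′ to 3′ along the gene's strand, so a match on the other strand reads as its reverse complement.
Fabp1: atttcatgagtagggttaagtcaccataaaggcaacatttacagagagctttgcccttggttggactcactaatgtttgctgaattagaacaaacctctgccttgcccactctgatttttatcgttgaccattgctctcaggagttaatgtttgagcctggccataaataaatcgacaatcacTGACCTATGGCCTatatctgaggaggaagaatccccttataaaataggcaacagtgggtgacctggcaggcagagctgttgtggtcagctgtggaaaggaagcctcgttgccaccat
Plin2: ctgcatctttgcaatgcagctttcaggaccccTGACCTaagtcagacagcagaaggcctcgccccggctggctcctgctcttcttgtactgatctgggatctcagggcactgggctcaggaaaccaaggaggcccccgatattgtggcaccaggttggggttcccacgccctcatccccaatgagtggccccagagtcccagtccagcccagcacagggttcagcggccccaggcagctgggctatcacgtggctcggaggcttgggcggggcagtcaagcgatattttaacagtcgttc
Cpt1a: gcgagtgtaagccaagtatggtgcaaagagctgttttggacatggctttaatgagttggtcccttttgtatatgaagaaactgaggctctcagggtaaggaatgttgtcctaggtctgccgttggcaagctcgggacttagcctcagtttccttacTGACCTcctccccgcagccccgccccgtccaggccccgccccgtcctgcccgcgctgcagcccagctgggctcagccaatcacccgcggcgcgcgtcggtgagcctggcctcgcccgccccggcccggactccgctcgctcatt
Pdk4: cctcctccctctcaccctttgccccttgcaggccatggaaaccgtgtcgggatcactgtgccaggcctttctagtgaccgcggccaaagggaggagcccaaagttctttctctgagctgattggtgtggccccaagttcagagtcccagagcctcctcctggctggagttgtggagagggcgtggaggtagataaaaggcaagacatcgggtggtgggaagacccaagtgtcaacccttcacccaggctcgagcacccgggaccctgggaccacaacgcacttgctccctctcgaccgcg
Slc25a20: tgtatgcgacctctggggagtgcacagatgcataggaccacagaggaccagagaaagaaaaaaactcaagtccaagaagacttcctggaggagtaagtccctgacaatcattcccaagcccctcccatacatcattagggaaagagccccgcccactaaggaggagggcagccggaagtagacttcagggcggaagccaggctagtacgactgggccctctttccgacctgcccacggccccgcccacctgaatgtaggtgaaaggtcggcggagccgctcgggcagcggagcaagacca
The strict repeat AGGTCANAGGTCA, searched on both strands, was in 0 of the 34 member promoters and in 0.0444% of all 27025 promoters in the table. The relaxed form AGGNCANAGGNCA was in 1 of 34 (2.94%), that of Fabp1 at position -67 from the start on the minus strand, against 0.381% of all promoters. AGGTCA alone, which overlaps both longer forms, was in 7 of 34 (20.6%: Acadm, Plin2, Cd36, Fabp1, Pparg, Acadvl and Cpt1a) against 16.0% of all. A match is a run of letters and not a measured binding site, and the sequences say nothing about elements outside these windows.

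In crypts of FL-shGFP mice, 15 of the 39 members rose against NL-shGFP crypts and 3 fell, a share called (46.2%) near that of all genes tested (46.7%). Angptl4, Fabp1, Pdk4 and Vnn1 rose by more than 3 on the log2 scale, Slc25a20, Acaa1b, Acot2, Acadl, Pex11a, Plin2 and the coactivator gene Ppargc1a by 1 to 2, and Cpt1a, Eci2, Ppard and Hadha by less than 1. Bdh1, Eci1 and Hadh fell. Other genes known as PPAR targets in mouse liver, Acsl1, Acot1, Cd36 and Ehhadh, did not pass in that comparison. In FL-shAlpl against FL-shGFP, Angptl4, Pdk4, Vnn1, Pex11a, Acadl, Slc25a20, Fabp1, Acot2, Acaa1b and Acsl1 fell, and Bdh1, Eci1, Hadh, Etfa and Decr1 rose. The receptor genes Ppara and Pparg and 6 of the 11 beta-oxidation genes were called in no comparison. In bulk RNA, fewer cells of a type and less RNA per cell cannot be told apart.

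Of the 39 members, 15 rose and 3 fell in FL-shGFP against NL-shGFP and 21 did not pass, with a median log2 fold change of 0.16. Of all 17404 genes tested, 46.7% were called in this comparison (25.1% higher, 21.6% lower), with a median of -0.0016. Of the members, 38.5% were called higher and 7.69% lower. The members were chosen with earlier results of these data known, so these shares are no test of the list. All 5 FL-shGFP libraries lay above all NL-shGFP libraries for 12 members and below them for 3, against 18.1% and 16.2% of all genes. In FL-shAlpl against FL-shGFP, 5 members rose, 10 fell and 24 did not pass (median -0.00051), beside 36.0% of all genes called (18.0% higher, 17.9% lower, median -0.0037). The groups did not overlap for 3 members on the higher and 4 on the lower side, against 7.63% and 9.29% of all genes. In FL-shAlpl against NL-shGFP, 8 rose, 0 fell and 31 did not pass (median 0.22), beside 17.4% of all genes called (9.31% higher, 8.12% lower, median 0.05), and 4 members were higher without overlap, against 7.53% of all genes. The count of 0 lower by edgeR compares with 3 members (Acsl1, Etfb and Acaa1a) at an unadjusted p below 0.05 and with 1 called lower by DESeq2. Any pair of these comparisons shares the 5 libraries of 1 group, so a gene's values in them are not independent.

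The count of 18 called in FL-shGFP against NL-shGFP became 20 (13 higher, 7 lower) without FL-shGFP replicates 3 and 5, and the 15 called in FL-shAlpl against FL-shGFP became 16 (7 higher, 9 lower). The 8 called in FL-shAlpl against NL-shGFP depended on single libraries: 5 were called when any of NL-shGFP replicates 2 and 4 and FL-shAlpl replicates 2 and 5 was left out, and 13 without FL-shAlpl replicate 1.

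**Figure D1:**
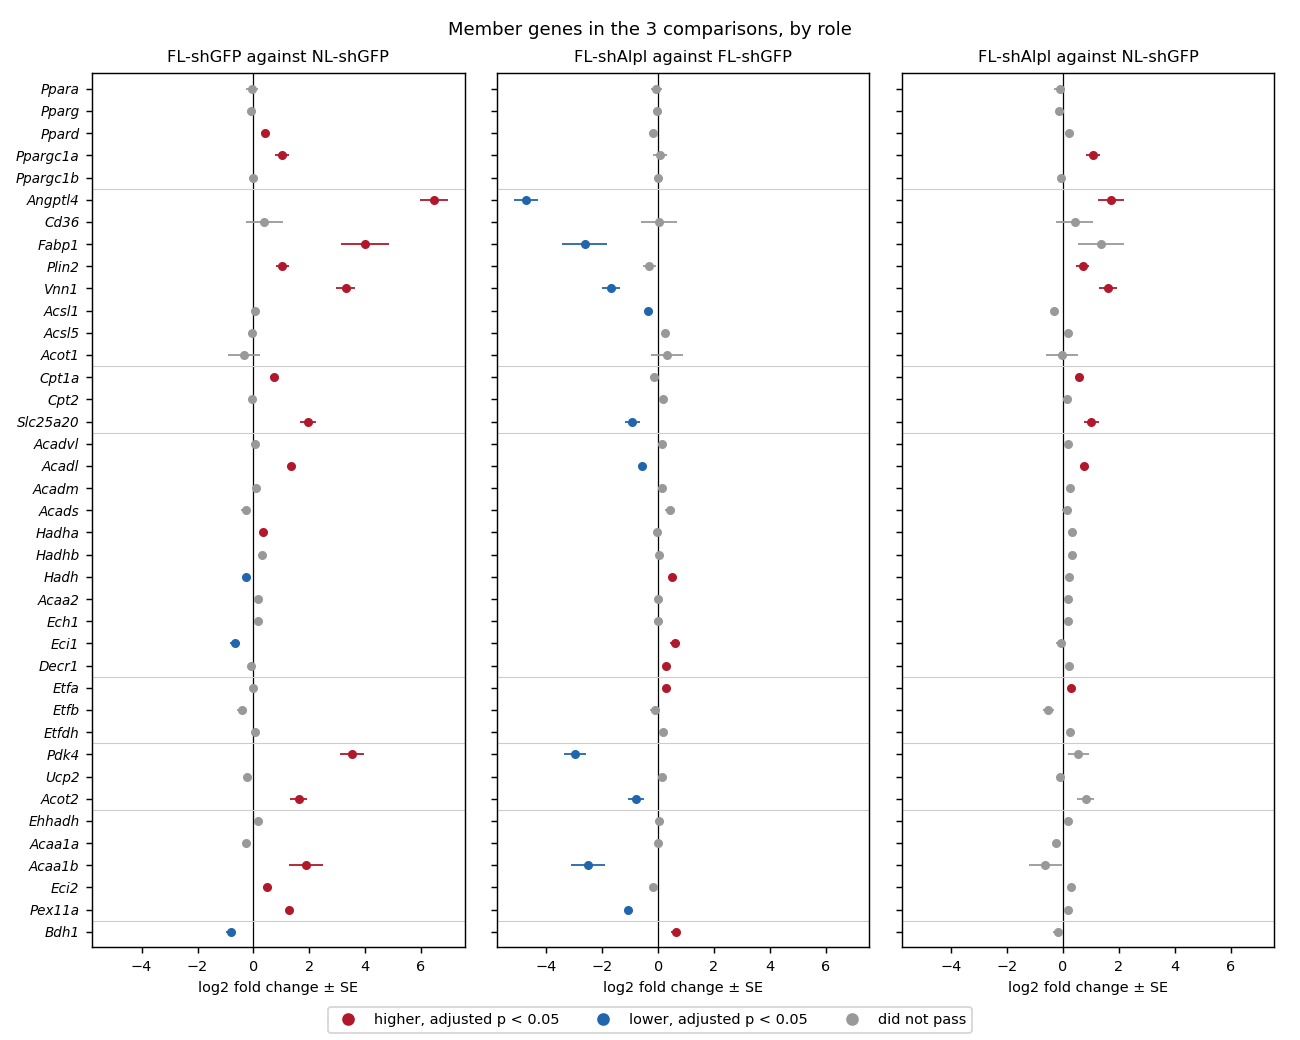
Log2 fold change ± SE (horizontal axis) of the 39 members, ordered by role from regulators at the top to Bdh1 at the bottom, in the 3 comparisons. Red points rose, blue points fell and grey points did not pass; Angptl4 lies farthest to the right in FL-shGFP against NL-shGFP (6.46) and farthest to the left in FL-shAlpl against FL-shGFP (-4.73).

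**Figure D2:**
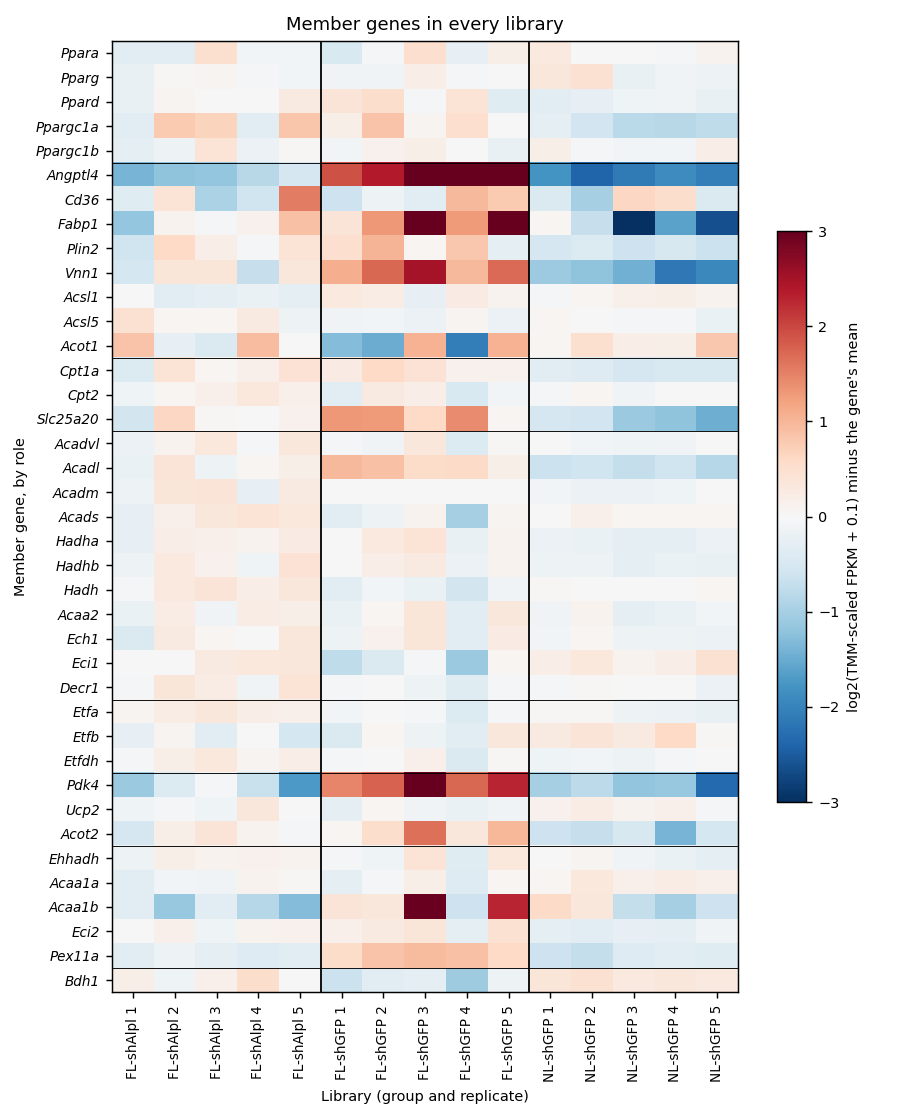
Level of each member (rows, by role) in each of the 15 libraries (columns), as log2(TMM-scaled FPKM + 0.1) minus the gene's mean over libraries, with colours capped at 3 in either direction. Angptl4, Fabp1, Vnn1, Pdk4 and Pex11a are red in the 5 FL-shGFP libraries, and Fabp1, Acot1 and Acaa1b differ among those 5.

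Among the 5 regulators, Ppargc1a and Ppard rose in FL-shGFP against NL-shGFP, and 0 were called in FL-shAlpl against FL-shGFP by edgeR, DESeq2 or at an unadjusted p below 0.05. Pparg had the highest mean of them in every group, with levels of 19.1, 22.8, 23.7, 21.5 and 21.2 in FL-shAlpl, 20.9, 20.9, 25.6, 21.7 and 22.3 in FL-shGFP and 28.2, 30.8, 19.1, 20.6 and 20.2 in NL-shGFP. In FL-shGFP replicates 1, 2 and 4, Ppard was higher (22.7, 24.8 and 22.8). Pparg encodes the receptor best known from fat cells and also found in colon epithelium. Its libraries overlapped between all groups, and its log2 fold change was -0.09 ± 0.13, adjusted p = 0.567 by edgeR in FL-shGFP against NL-shGFP. Ppara, the receptor that drives fatty acid oxidation in liver, had levels of 1.37, 1.39, 2.49, 1.65 and 1.66 in FL-shAlpl, 1.24, 1.72, 2.53, 1.46 and 1.97 in FL-shGFP and 2.17, 1.73, 1.75, 1.70 and 1.90 in NL-shGFP. These overlapped as well, FL-shAlpl replicate 3 and FL-shGFP replicate 3 being the highest of all 15 libraries. Ppara's log2 fold change was -0.05 ± 0.20 in FL-shGFP against NL-shGFP and -0.06 ± 0.20 in FL-shAlpl against FL-shGFP (edgeR adjusted p = 0.855 and 0.835).

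Ppard, the receptor expressed in most tissues, had levels of 14.8, 18.2, 17.0, 17.0 and 20.9 in FL-shAlpl, 22.7, 24.8, 16.7, 22.8 and 13.3 in FL-shGFP and 13.9, 14.6, 15.8, 16.0 and 14.8 in NL-shGFP. FL-shGFP replicate 5 lay below all NL-shGFP libraries and the other 4 above them. Ppard rose in FL-shGFP against NL-shGFP (log2 fold change 0.42 ± 0.15, adjusted p = 0.0280 by edgeR). That call was lost without FL-shGFP replicate 1, 2 or 4 or NL-shGFP replicate 1, 2 or 5 (log2 fold change 0.33 to 0.53 over the 15 fits that each leave out 1 library, edgeR adjusted p up to 0.0809), and with a replicate block (log2 fold change 0.41, adjusted p = 0.0614). In FL-shAlpl against FL-shGFP it did not pass (-0.19 ± 0.15, adjusted p = 0.327 by edgeR), and without FL-shGFP replicates 3 and 5 it was called lower (-0.41, adjusted p = 0.00732).

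Ppargc1a encodes PGC-1 alpha, a coactivator of PPARs that drives the making of mitochondria. Its levels were 2.35, 5.25, 4.88, 2.34 and 5.47 in FL-shAlpl, 3.43, 5.49, 3.21, 4.28 and 3.05 in FL-shGFP and 2.49, 1.98, 1.69, 1.65 and 1.75 in NL-shGFP. Every FL-shGFP library exceeded every NL-shGFP library, while FL-shAlpl replicates 1 and 4 fell within the NL-shGFP range and replicates 2, 3 and 5 lay near the top of the FL-shGFP range. Ppargc1a rose in FL-shGFP against NL-shGFP (1.02 ± 0.25, adjusted p = 0.00431 by edgeR) and in FL-shAlpl against NL-shGFP (1.09 ± 0.25, adjusted p = 0.00866). FL-shAlpl and FL-shGFP did not differ at a called level (0.06 ± 0.25, adjusted p = 0.868). Ppargc1b, the related PGC-1 beta gene, had levels of 4.25, 4.60, 6.87, 4.55 and 5.26 in FL-shAlpl, 4.89, 5.61, 5.88, 5.16 and 4.40 in FL-shGFP and 5.87, 4.95, 4.84, 4.86 and 5.95 in NL-shGFP. Its groups overlapped throughout, and its log2 fold changes lay between -0.05 and -0.02 in the 3 comparisons.

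Of the 8 members that handle lipid outside the mitochondrion, 4 rose in FL-shGFP against NL-shGFP (Angptl4, Fabp1, Vnn1 and Plin2), 4 fell in FL-shAlpl against FL-shGFP (Angptl4, Fabp1, Vnn1 and Acsl1), and 3 rose in FL-shAlpl against NL-shGFP (Angptl4, Vnn1 and Plin2). Angptl4, a secreted inhibitor of lipoprotein lipase and a widely used PPAR target, had the log2 fold change of largest size among the 39 members in each comparison. Its levels were 0.187, 0.225, 0.236, 0.323 and 0.433 in FL-shAlpl, 2.75, 3.85, 14.9, 7.02 and 8.46 in FL-shGFP and 0.118, 0.0422, 0.0739, 0.105 and 0.0803 in NL-shGFP. The 3 groups did not overlap: the lowest FL-shGFP library was above the highest FL-shAlpl library, and the lowest FL-shAlpl library above the highest NL-shGFP library. Angptl4 rose in FL-shGFP against NL-shGFP (6.46 ± 0.50, adjusted p = 1.68e-06 by edgeR) and fell in FL-shAlpl against FL-shGFP (-4.73 ± 0.44, adjusted p = 2.34e-05). Against NL-shGFP it was higher in FL-shAlpl (1.73 ± 0.47, adjusted p = 0.0201), a call lost without NL-shGFP replicate 2 or FL-shAlpl replicate 5 (1.53 to 1.88 over the 15 fits, adjusted p up to 0.0538). Without FL-shGFP replicates 3 and 5 the log2 fold change was 5.75, adjusted p = 7.90e-07 in FL-shGFP against NL-shGFP and -4.02, adjusted p = 1.82e-05 in FL-shAlpl against FL-shGFP.

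Vnn1 encodes pantetheinase, an enzyme that frees cysteamine and pantothenate and is induced by PPAR alpha in mouse liver. Its levels were 2.79, 5.26, 5.31, 2.51 and 5.22 in FL-shAlpl, 8.73, 13.7, 23.6, 8.06 and 13.5 in FL-shGFP and 1.86, 1.71, 1.43, 0.844 and 0.988 in NL-shGFP. The order was again FL-shGFP, FL-shAlpl, NL-shGFP with no overlap. Vnn1 rose in FL-shGFP against NL-shGFP (3.30 ± 0.35, adjusted p = 1.33e-05 by edgeR), fell in FL-shAlpl against FL-shGFP (-1.68 ± 0.32, adjusted p = 0.00160) and rose in FL-shAlpl against NL-shGFP (1.62 ± 0.33, adjusted p = 0.00400).

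Fabp1, the cytosolic liver-type fatty acid binding protein, varied more among the FL-shGFP libraries than Vnn1 did. Its levels were 1.60, 4.01, 3.57, 4.07 and 6.88 in FL-shAlpl, 4.91, 9.34, 69.2, 9.09 and 31.7 in FL-shGFP and 3.85, 2.25, 0, 1.15 and 0.514 in NL-shGFP. FL-shGFP replicates 3 and 5 were far above the other 3, whose levels reached 9.34, and the FL-shAlpl libraries overlapped with both other groups. NL-shGFP replicate 3 had a count of 0, which allows a level of up to 0.177 (3 counts, counting error only). Fabp1 rose in FL-shGFP against NL-shGFP (3.99 ± 0.87, adjusted p = 0.00208 by edgeR). The value was 3.14, adjusted p = 0.00635 without FL-shGFP replicate 3, 4.62, adjusted p = 0.00219 without NL-shGFP replicate 1 and 2.31, adjusted p = 0.0232 without FL-shGFP replicates 3 and 5. In FL-shAlpl against FL-shGFP it fell (-2.63 ± 0.80, adjusted p = 0.0199), but was not called without FL-shGFP replicate 3 (-1.78, adjusted p = 0.0783) or without replicates 3 and 5 (-0.95, adjusted p = 0.328). That call was also lost with no filter, limma on log2(FPKM + 0.1) and a replicate block.

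Plin2 coats lipid droplets inside cells. Its levels were 18.0, 41.6, 31.5, 26.8 and 36.7 in FL-shAlpl, 39.2, 55.9, 28.8, 47.8 and 22.2 in FL-shGFP and 19.4, 20.5, 17.7, 19.5 and 17.4 in NL-shGFP. All FL-shGFP libraries lay above all NL-shGFP libraries, and 4 of the 5 FL-shAlpl libraries did too. Plin2 rose in FL-shGFP against NL-shGFP (1.04 ± 0.24, adjusted p = 0.00269 by edgeR) and did not pass in FL-shAlpl against FL-shGFP (-0.33 ± 0.23, adjusted p = 0.291), though it was called lower there without FL-shGFP replicates 3 and 5 (-0.62, adjusted p = 0.0243). Its rise in FL-shAlpl against NL-shGFP (0.71 ± 0.24, adjusted p = 0.0482) was lost without any 1 of the 5 NL-shGFP libraries, FL-shGFP replicate 1 or FL-shAlpl replicate 2, 3, 4 or 5 (0.55 to 0.85 over the 15 fits, adjusted p up to 0.168).

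The acyl-CoA synthetases Acsl1 and Acsl5, which activate long-chain fatty acids, showed small differences. Acsl1 ranged over 2.13 to 2.72 in FL-shAlpl, 2.28 to 3.34 in FL-shGFP and 2.62 to 3.08 in NL-shGFP. It fell in FL-shAlpl against FL-shGFP (-0.36 ± 0.11, adjusted p = 0.0169 by edgeR), a call lost without FL-shGFP replicate 1 (-0.32, adjusted p = 0.0502). The call held in 8 of the 13 other alternatives. It was lost with library totals alone, no filter, both limma fits and only the 2 groups compared. In FL-shAlpl against NL-shGFP, Acsl1 did not pass (-0.31 ± 0.11, adjusted p = 0.0543), and was called lower there without FL-shGFP replicates 3 and 5 (-0.31, adjusted p = 0.0222). Its exons overlap the annotated locus Gm45244 on the other strand over 1039 bases, so its reads are uncertain. Acsl5 ranged over 17.8 to 26.9 in FL-shAlpl, 17.4 to 20.8 in FL-shGFP and 17.2 to 20.4 in NL-shGFP, and was not called in any comparison. Cd36, a surface receptor for fatty acids, was scarce (0.0694 to 0.868 over the 15 libraries) and passed in none. Acot1, a cytosolic acyl-CoA thioesterase, had levels of 2.77, 1.25, 1.08, 2.96 and 1.48 in FL-shAlpl, 0.549, 0.465, 3.19, 0.281 and 3.18 in FL-shGFP and 1.57, 2.13, 1.73, 1.70 and 2.70 in NL-shGFP. FL-shGFP replicates 3 and 5 were the 2 highest of all libraries and replicates 1, 2 and 4 the 3 lowest. Acot1 passed in no comparison of all libraries (-0.35 ± 0.57, adjusted p = 0.637 by edgeR in FL-shGFP against NL-shGFP), and without those 2 libraries it was called lower in FL-shGFP than in NL-shGFP (-2.18, adjusted p = 0.000371) and higher in FL-shAlpl than in FL-shGFP (2.14, adjusted p = 0.000720). As the libraries left out were its 2 highest, a lower FL-shGFP level followed from that choice, and these p-values are no test of it.

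**Figure D3:**
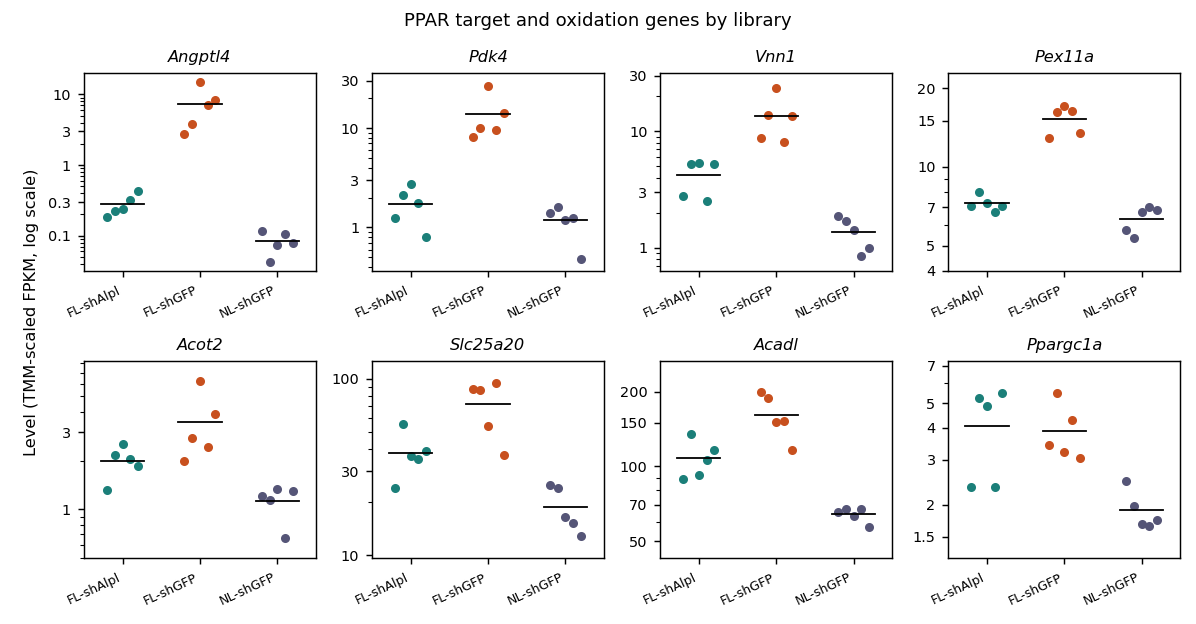
TMM-scaled FPKM on log axes for 8 members in the 5 libraries of each group (points, replicates 1 to 5 from left to right) with the group mean (line). The FL-shGFP libraries lie above all others for Angptl4, Pdk4, Vnn1 and Pex11a, while for Ppargc1a 3 of the 5 FL-shAlpl libraries lie at the height of the highest FL-shGFP libraries.

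Fatty acids enter mitochondria through 3 members, and 2 of them rose in FL-shGFP against NL-shGFP. Cpt1a, the gene of the outer-membrane carnitine palmitoyltransferase that limits the rate of entry, had levels of 25.8, 46.1, 35.9, 38.5 and 46.6 in FL-shAlpl, 40.8, 52.2, 47.1, 37.9 and 37.8 in FL-shGFP and 27.2, 26.6, 24.4, 25.3 and 25.1 in NL-shGFP. All FL-shGFP libraries exceeded all NL-shGFP libraries, and FL-shAlpl replicate 1 alone among its group lay within the NL-shGFP range. Cpt1a rose in FL-shGFP against NL-shGFP (0.75 ± 0.14, adjusted p = 0.000864 by edgeR) and in FL-shAlpl against NL-shGFP (0.58 ± 0.14, adjusted p = 0.0119), the second call being lost without FL-shAlpl replicate 2 (0.48, adjusted p = 0.0537). It did not pass in FL-shAlpl against FL-shGFP (-0.16 ± 0.14, adjusted p = 0.393). Slc25a20, the carrier that swaps acylcarnitine for carnitine across the inner membrane, had levels of 24.2, 55.2, 36.3, 35.0 and 39.2 in FL-shAlpl, 88.2, 86.5, 53.8, 95.3 and 36.9 in FL-shGFP and 25.1, 24.0, 16.4, 15.3 and 12.8 in NL-shGFP. Each FL-shGFP library lay above each NL-shGFP library, and FL-shGFP replicates 3 and 5 were the lowest of their group and overlapped with FL-shAlpl.

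Slc25a20 rose in FL-shGFP against NL-shGFP (1.95 ± 0.28, adjusted p = 0.000115 by edgeR) and fell in FL-shAlpl against FL-shGFP (-0.92 ± 0.27, adjusted p = 0.0174), where the call was lost without FL-shGFP replicate 4 (-0.80, adjusted p = 0.05002). In FL-shAlpl against NL-shGFP it rose (1.02 ± 0.27, adjusted p = 0.0188), but not when NL-shGFP replicate 4 (0.96, adjusted p = 0.0501) or FL-shAlpl replicate 2 was left out (0.82, adjusted p = 0.0744). Cpt2, the inner-membrane partner of Cpt1a, averaged 38.1 ± 4.09 in FL-shAlpl, 33.8 ± 7.47 in FL-shGFP and 34.7 ± 1.49 in NL-shGFP and was called in no comparison.

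The 11 members of the mitochondrial beta-oxidation spiral did not move as a block. In FL-shGFP against NL-shGFP, Acadl and Hadha rose, Eci1 and Hadh fell, and 7 did not pass. In FL-shAlpl against FL-shGFP, Hadh, Eci1 and Decr1 rose and Acadl fell. Acadl, the long-chain acyl-CoA dehydrogenase, had levels of 89.2, 135, 92.7, 106 and 116 in FL-shAlpl, 199.9, 188, 150.2, 152 and 116 in FL-shGFP and 65.5, 67.5, 63.0, 67.3 and 56.9 in NL-shGFP. The FL-shGFP and FL-shAlpl libraries all lay above those of NL-shGFP, and FL-shGFP replicate 5 overlapped with FL-shAlpl. Acadl rose in FL-shGFP against NL-shGFP (1.33 ± 0.15, adjusted p = 1.64e-05 by edgeR), fell in FL-shAlpl against FL-shGFP (-0.58 ± 0.14, adjusted p = 0.00684) and rose in FL-shAlpl against NL-shGFP (0.75 ± 0.14, adjusted p = 0.00287).

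Hadh, the short-chain 3-hydroxyacyl-CoA dehydrogenase, had levels of 43.8, 54.9, 59.2, 51.3 and 56.7 in FL-shAlpl, 35.7, 42.4, 38.9, 30.7 and 41.5 in FL-shGFP and 46.0, 45.6, 45.3, 44.7 and 46.7 in NL-shGFP. All FL-shGFP libraries lay below all libraries of both other groups. Hadh rose in FL-shAlpl against FL-shGFP (0.49 ± 0.10, adjusted p = 0.00275 by edgeR). Its fall in FL-shGFP against NL-shGFP (-0.27 ± 0.10, adjusted p = 0.0427) was lost without any 1 of the 5 NL-shGFP libraries, FL-shGFP replicate 1, 3 or 4 or FL-shAlpl replicate 2 (-0.32 to -0.20 over the 15 fits, adjusted p up to 0.109). Eci1, the mitochondrial isomerase that prepares unsaturated fatty acids for the spiral, had levels of 13.5, 13.5, 16.2, 16.9 and 17.2 in FL-shAlpl, 7.96, 10.01, 13.2, 6.15 and 14.0 in FL-shGFP and 15.5, 16.8, 14.6, 15.5 and 18.7 in NL-shGFP. The highest FL-shGFP library was below the lowest NL-shGFP library, while FL-shGFP replicate 5 exceeded FL-shAlpl replicates 1 and 2. Eci1 fell in FL-shGFP against NL-shGFP (-0.66 ± 0.18, adjusted p = 0.00801) and rose in FL-shAlpl against FL-shGFP (0.59 ± 0.18, adjusted p = 0.0195), the second call being lost without FL-shGFP replicate 1 (0.51, adjusted p = 0.0541).

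Hadha and Hadhb encode the subunits of the trifunctional protein for long chains. Hadha averaged 37.2 ± 4.73 in FL-shAlpl, 38.0 ± 6.17 in FL-shGFP and 29.9 ± 1.01 in NL-shGFP, and Hadhb 19.3 ± 3.51 in FL-shAlpl, 18.7 ± 2.18 in FL-shGFP and 15.3 ± 0.632 in NL-shGFP. Hadha rose in FL-shGFP against NL-shGFP (0.35 ± 0.12, adjusted p = 0.0272 by edgeR), a call lost without any of NL-shGFP 3 and 4 and FL-shGFP 2 and 3 (0.27 to 0.42 over the 15 fits, adjusted p up to 0.0789) and without FL-shGFP replicates 3 and 5 together (0.26, adjusted p = 0.115). Hadhb did not pass (0.29 ± 0.12, adjusted p = 0.0533). Exons of Hadha overlap Garem2 on the other strand over 75 bases. Decr1, the mitochondrial dienoyl-CoA reductase for unsaturated chains, averaged 17.0 ± 2.82 in FL-shAlpl, 13.9 ± 1.41 in FL-shGFP and 14.6 ± 0.769 in NL-shGFP. Decr1 rose in FL-shAlpl against FL-shGFP (0.30 ± 0.11, adjusted p = 0.0441), a call lost without any of NL-shGFP 1 to 4, FL-shGFP 1, 3 and 4 and FL-shAlpl 2, 3 and 5 (0.21 to 0.37 over the 15 fits, adjusted p up to 0.183) and without FL-shGFP replicates 3 and 5 together (0.31, adjusted p = 0.0711). Acadvl, Acadm and Acads, the dehydrogenases for very long, medium and short chains, the thiolase Acaa2 and the isomerase Ech1 were called in no comparison. Their largest log2 fold change was that of Acads in FL-shAlpl against FL-shGFP (0.42 ± 0.17, adjusted p = 0.0654). Acads had levels of 59.5, 78.5, 88.9, 94.7 and 87.7 in FL-shAlpl and 55.6, 63.6, 76.4, 35.5 and 74.5 in FL-shGFP, FL-shGFP replicate 4 being the lowest of all 15 libraries. Without FL-shGFP replicates 3 and 5 it was called higher in FL-shAlpl than in FL-shGFP (0.67, adjusted p = 0.00774) and lower in FL-shGFP than in NL-shGFP (-0.52, adjusted p = 0.0224). Those libraries were the highest of FL-shGFP for Acads, so leaving them out lowers that group by construction.

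The electron transfer flavoprotein, made of the Etfa and Etfb subunits, passes electrons from the acyl-CoA dehydrogenases to Etfdh. Etfa had levels of 79.2, 86.9, 94.4, 85.0 and 82.4 in FL-shAlpl, 70.4, 75.4, 73.3, 56.3 and 73.1 in FL-shGFP and 76.3, 76.9, 67.2, 66.2 and 64.1 in NL-shGFP. The 5 FL-shAlpl libraries lay above all others, and FL-shGFP replicate 4 was the lowest. Etfa rose in FL-shAlpl against FL-shGFP (0.30 ± 0.10, adjusted p = 0.0245 by edgeR), a call lost without FL-shGFP replicate 4 or FL-shAlpl replicate 2 or 3 (0.23 to 0.33 over the 15 fits, adjusted p up to 0.0743). Its rise in FL-shAlpl against NL-shGFP (0.29 ± 0.10, adjusted p = 0.0476) held in 3 of the 15 fits. Those were the fits without FL-shGFP replicate 4 or 5 or FL-shAlpl replicate 1. Over all 15 fits the log2 fold change was 0.25 to 0.32, with an adjusted p up to 0.145. The call was also lost without FL-shGFP replicates 3 and 5 together (0.29, adjusted p = 0.0507). Etfb averaged 3.44 ± 0.599 in FL-shAlpl, 3.73 ± 0.864 in FL-shGFP and 4.93 ± 0.701 in NL-shGFP and Etfdh 11.8 ± 1.09 in FL-shAlpl, 10.4 ± 1.53 in FL-shGFP and 10.05 ± 0.365 in NL-shGFP, and neither was called in a comparison of all libraries. Without FL-shGFP replicates 3 and 5, Etfb was called lower in FL-shGFP (-0.55, adjusted p = 0.0355) and in FL-shAlpl (-0.52, adjusted p = 0.0489) than in NL-shGFP, and Etfdh higher in FL-shAlpl than in FL-shGFP (0.30, adjusted p = 0.0412). Exons of Etfb overlap those of the protein-coding gene Gm45233 on the same strand over 159 bases, so the reads of Etfb are uncertain.

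**Figure D4:**
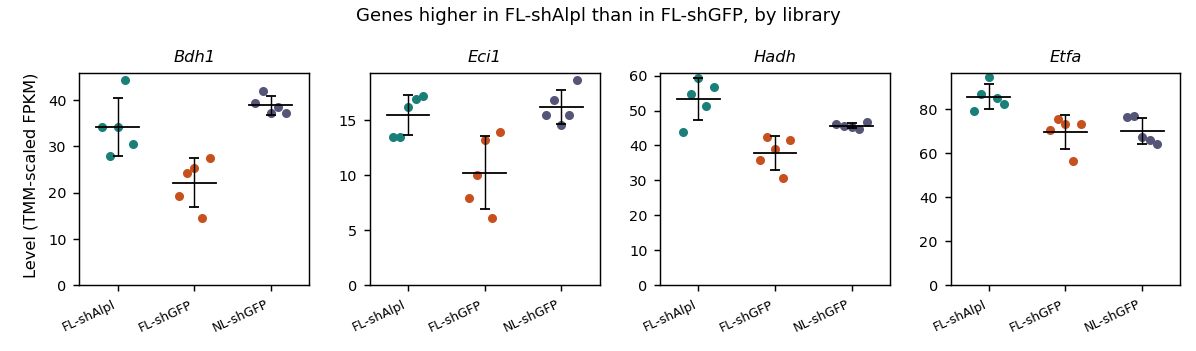
TMM-scaled FPKM of Bdh1, Eci1, Hadh and Etfa in the 5 libraries of each group (points), with mean (line) and SD (bars), n = 5. For Bdh1, Hadh and Etfa all FL-shAlpl libraries lie above all FL-shGFP libraries, and for Bdh1, Eci1 and Hadh all FL-shGFP libraries lie below all NL-shGFP libraries.

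Pdk4 and Acot2, mitochondrial PPAR targets outside the spiral, rose in FL-shGFP against NL-shGFP and fell in FL-shAlpl against FL-shGFP. Pdk4 encodes a kinase that switches off pyruvate dehydrogenase and so spares glucose when fat is burned. Its levels were 1.26, 2.13, 2.75, 1.75 and 0.796 in FL-shAlpl, 8.07, 10.002, 26.7, 9.60 and 14.2 in FL-shGFP and 1.39, 1.61, 1.19, 1.24 and 0.486 in NL-shGFP. All FL-shGFP libraries lay above all others, replicate 3 being the highest, and the FL-shAlpl and NL-shGFP ranges overlapped. Pdk4 rose in FL-shGFP against NL-shGFP (3.53 ± 0.42, adjusted p = 3.03e-05 by edgeR) and fell in FL-shAlpl against FL-shGFP (-2.98 ± 0.40, adjusted p = 0.000198), and did not pass in FL-shAlpl against NL-shGFP (0.55 ± 0.39, adjusted p = 0.362). Acot2, a mitochondrial acyl-CoA thioesterase, had levels of 1.31, 2.18, 2.54, 2.05 and 1.86 in FL-shAlpl, 1.98, 2.78, 6.25, 2.44 and 3.91 in FL-shGFP and 1.20, 1.15, 1.34, 0.663 and 1.29 in NL-shGFP. The FL-shGFP libraries lay above all NL-shGFP libraries, and FL-shGFP replicates 1 and 4 overlapped with FL-shAlpl.

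Acot2 rose in FL-shGFP against NL-shGFP (1.62 ± 0.30, adjusted p = 0.000616 by edgeR). Its fall in FL-shAlpl against FL-shGFP (-0.81 ± 0.29, adjusted p = 0.0409) was lost without any of NL-shGFP 1, 2 and 3, FL-shGFP 3 and 5 and FL-shAlpl 1, 4 and 5 (-0.95 to -0.48 over the 15 fits, adjusted p up to 0.149), and was -0.27, adjusted p = 0.416 without FL-shGFP replicates 3 and 5. In FL-shAlpl against NL-shGFP it did not pass (0.82 ± 0.30, adjusted p = 0.0681), and was called higher there without FL-shGFP replicates 3 and 5 (0.82, adjusted p = 0.0203). Acot2 and Acot1 share 24.5% of the 50-base runs of the longest Acot2 transcript, so reads may be split between them. Ucp2, an inner-membrane carrier, averaged 49.7 ± 7.13 in FL-shAlpl, 45.3 ± 3.98 in FL-shGFP and 53.3 ± 3.61 in NL-shGFP and was called in no comparison.

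Of the 5 peroxisomal members, Pex11a, Eci2 and Acaa1b rose in FL-shGFP against NL-shGFP, Pex11a and Acaa1b fell in FL-shAlpl against FL-shGFP, and 0 were called in FL-shAlpl against NL-shGFP by edgeR or DESeq2, where Eci2 and Acaa1a had an unadjusted p below 0.05. Pex11a, whose protein lengthens and divides peroxisomes, had levels of 7.10, 7.98, 7.29, 6.71 and 7.11 in FL-shAlpl, 12.9, 16.2, 17.1, 16.4 and 13.4 in FL-shGFP and 5.74, 5.33, 6.72, 7.01 and 6.85 in NL-shGFP. The FL-shGFP libraries lay above all others, and FL-shAlpl overlapped with NL-shGFP. Pex11a rose in FL-shGFP against NL-shGFP (1.26 ± 0.11, adjusted p = 2.37e-06 by edgeR) and fell in FL-shAlpl against FL-shGFP (-1.07 ± 0.11, adjusted p = 3.22e-05). In FL-shAlpl against NL-shGFP it did not pass (0.19 ± 0.10, adjusted p = 0.218). Acaa1b, a thiolase of the peroxisome, had levels of 1.32, 0.706, 1.30, 0.881 and 0.617 in FL-shAlpl, 2.21, 2.12, 13.7, 1.05 and 8.49 in FL-shGFP and 2.52, 2.15, 0.983, 0.783 and 1.04 in NL-shGFP. FL-shGFP replicates 3 and 5 were the highest by far, and the other 3 lay within the NL-shGFP range.

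Acaa1b rose in FL-shGFP against NL-shGFP (1.88 ± 0.60, adjusted p = 0.0186 by edgeR), but was not called without FL-shGFP replicate 3 (1.21, adjusted p = 0.0732) or without replicates 3 and 5 (0.26, adjusted p = 0.619). It also lost that call with no filter, both limma fits, a replicate block and both close NL-shGFP pairs summed. In FL-shAlpl against FL-shGFP it fell (-2.51 ± 0.61, adjusted p = 0.00652), with -1.84, adjusted p = 0.0175 without FL-shGFP replicate 3 and -0.89, adjusted p = 0.0918 without replicates 3 and 5. Its exons overlap those of Dlec1 on the other strand, and it shares 35.5% of its 50-base runs with Acaa1a, so its reads are uncertain. Acaa1a averaged 12.2 ± 1.43 in FL-shAlpl, 12.1 ± 1.92 in FL-shGFP and 14.6 ± 0.984 in NL-shGFP and passed in no comparison of all libraries, but was called lower in FL-shGFP than in NL-shGFP without FL-shGFP replicates 3 and 5 (-0.41, adjusted p = 0.00882). These were the highest FL-shGFP libraries for Acaa1a as well, so that group is lowered by construction. Eci2, the peroxisomal enoyl-CoA isomerase, averaged 6.34 ± 0.516 in FL-shAlpl, 7.14 ± 1.29 in FL-shGFP and 5.16 ± 0.310 in NL-shGFP, and rose in FL-shGFP against NL-shGFP (0.47 ± 0.12, adjusted p = 0.00415 by edgeR). Its exons overlap the antisense gene Gm16984 over 189 bases. Ehhadh, the bifunctional enzyme and a classic PPAR alpha target in rodent liver, averaged 13.6 ± 1.11 in FL-shAlpl, 13.4 ± 2.96 in FL-shGFP and 12.0 ± 1.28 in NL-shGFP and was called in none.

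Bdh1, which interconverts acetoacetate and 3-hydroxybutyrate at the end of ketone body synthesis, was the only ketone body enzyme among the members. Its levels were 34.2, 27.9, 34.1, 44.3 and 30.4 in FL-shAlpl, 19.4, 24.2, 25.3, 14.4 and 27.5 in FL-shGFP and 39.4, 42.0, 37.2, 38.5 and 37.2 in NL-shGFP. The FL-shGFP libraries lay below all libraries of the other groups, which overlapped with each other. Bdh1 fell in FL-shGFP against NL-shGFP (-0.81 ± 0.16, adjusted p = 0.000823 by edgeR) and rose in FL-shAlpl against FL-shGFP (0.62 ± 0.16, adjusted p = 0.00687), and was not called in FL-shAlpl against NL-shGFP (-0.18 ± 0.15, adjusted p = 0.451). An antisense gene, Gm15743, overlaps its exons, and whether the counts used strand is not stated. Exons of 11 members overlap another gene, and apart from Acaa1b, Acsl1, Hadha, Eci2 and Bdh1 these were members with no call in the comparisons of all libraries (Acaa1a, Acadvl, Acsl5, Etfb, Etfdh and Ucp2).

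The calls that held in all 15 fits with 1 library left out and in all 13 other alternatives numbered 14 of 18 in FL-shGFP against NL-shGFP, 7 of 15 in FL-shAlpl against FL-shGFP and 3 of 8 in FL-shAlpl against NL-shGFP. In the second comparison those 7 were Angptl4, Vnn1, Acadl, Hadh, Pdk4, Pex11a and Bdh1, and in the third Ppargc1a, Vnn1 and Acadl. No called member changed direction under any alternative.

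Among the 5 FL-shGFP libraries, replicates 3 and 5 were the 2 highest for 18 of the 39 members and the 2 lowest for 7. The 18 were Ppara, Pparg, Angptl4, Fabp1, Acot1, Acadvl, Acads, Acaa2, Ech1, Eci1, Etfdh, Pdk4, Acot2, Ehhadh, Acaa1a, Acaa1b, Eci2 and Bdh1. The 7 were Ppard, Ppargc1a, Plin2, Acsl1, Acsl5, Slc25a20 and Acadl. Replicate 4 was the lowest for 20 members, among them Hadha, Hadhb, Hadh, Acads, Etfa and Bdh1. The median coefficient of variation over members was 17.2% in FL-shAlpl, 21.1% in FL-shGFP and 7.09% in NL-shGFP.

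Of 65 further genes of the same pathways in the table, 57 were tested, and 20 rose and 8 fell in FL-shGFP against NL-shGFP, 7 rose and 13 fell in FL-shAlpl against FL-shGFP, and 10 rose and 4 fell in FL-shAlpl against NL-shGFP (median log2 fold changes 0.07, -0.03 and 0.14). The shares called were 49.1%, 35.1% and 24.6% in that order, beside 46.7%, 36.0% and 17.4% of all genes. Creb3l3, a liver and gut transcription factor of fasting metabolism, averaged 8.49 ± 2.95 in FL-shGFP and 0.561 ± 0.318 in NL-shGFP; 3.91 ± 0.45, adjusted p = 2.73e-05 by edgeR, and fell in FL-shAlpl against FL-shGFP (-2.38 ± 0.41, adjusted p = 0.000972). Cidec, a lipid droplet protein, averaged 8.20 ± 2.09 in FL-shGFP and 1.21 ± 0.354 in NL-shGFP; 2.76 ± 0.32, adjusted p = 2.51e-05, and fell in FL-shAlpl against FL-shGFP (-1.48 ± 0.30, adjusted p = 0.00230). Slc22a5, the cell's carnitine importer, likewise rose in FL-shGFP against NL-shGFP (1.34 ± 0.19, adjusted p = 9.31e-05) and fell in FL-shAlpl against FL-shGFP (-1.31 ± 0.19, adjusted p = 0.000263). Crot, a peroxisomal carnitine acyltransferase, and Fabp4, a fatty acid binding protein known from fat cells, rose in FL-shGFP against NL-shGFP (Crot 0.74 ± 0.09, adjusted p = 3.40e-05, Fabp4 3.93 ± 0.64, adjusted p = 0.000237), while Pdk3, another pyruvate dehydrogenase kinase, fell (-0.52 ± 0.10, adjusted p = 0.000842).

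Some mitochondrial genes of this list moved on the same side as Bdh1 and Hadh in FL-shAlpl against FL-shGFP. Of its 14 tested genes of carnitine and mitochondrial oxidation, 6 rose and 3 fell, Slc22a5 among these 3. Their log2 fold changes ran from -1.40 to 0.88, and of all genes 18.0% were called higher and 17.9% lower. Hsd17b10, a short-chain hydroxyacyl-CoA dehydrogenase, averaged 36.0 ± 3.86 in FL-shAlpl and 22.3 ± 4.95 in FL-shGFP; 0.69 ± 0.13, adjusted p = 0.00151 by edgeR. Acat1, the mitochondrial acetoacetyl-CoA thiolase that acts in ketone body metabolism, averaged 45.8 ± 4.91 in FL-shAlpl and 28.1 ± 6.61 in FL-shGFP; 0.71 ± 0.15, adjusted p = 0.00232. Bdh2, a cytosolic hydroxybutyrate dehydrogenase, fell there at a low level (0.0368 ± 0.0269 in FL-shAlpl and 0.112 ± 0.0499 in FL-shGFP; -1.59 ± 0.53, adjusted p = 0.0279), and Oxct1 and Slc16a1, also ketone body genes of the list, did not pass. Pcca, a propionyl-CoA carboxylase subunit, averaged 8.01 ± 1.74 in FL-shAlpl and 4.35 ± 1.20 in FL-shGFP; 0.88 ± 0.18, adjusted p = 0.00264. In FL-shAlpl against NL-shGFP the smallest adjusted p-values belonged to Hilpda and G0s2, inhibitors of lipolysis, which fell (Hilpda -0.81 ± 0.15, adjusted p = 0.00179, G0s2 -2.50 ± 0.55, adjusted p = 0.00621), and to Crot (0.47 ± 0.09, adjusted p = 0.00301), Cidec (1.28 ± 0.31, adjusted p = 0.0108), the acyl-CoA dehydrogenase Acad11 (1.04 ± 0.25, adjusted p = 0.0117) and the coactivator Ncoa1 (0.37 ± 0.09, adjusted p = 0.0129), which rose.

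Between groups, cell type markers moved with these results. Summed levels of 10 surface colonocyte genes were 978 to 2737 in FL-shAlpl, 2414 to 5358 in FL-shGFP and 806 to 1806 in NL-shGFP, with 9 of 10 called higher in FL-shGFP against NL-shGFP and 8 of 10 called lower in FL-shAlpl against FL-shGFP. Sums of 8 crypt base stem cell genes were 11.4 to 36.7, 6.04 to 12.1 and 28.9 to 40.8 in the same group order, with 7 of 8 called lower in FL-shGFP against NL-shGFP and 6 of 8 called higher in FL-shAlpl against FL-shGFP. Sums of 8 T and NK cell genes were 2.08 to 4.78, 19.4 to 54.1 and 3.02 to 10.7, with 8 of 8 called higher and 8 of 8 called lower in those comparisons. Smooth muscle sums (5 genes) were 0.732 to 1.36, 1.55 to 5.67 and 0.526 to 1.02, with 3 of 5 called higher and 3 of 5 called lower. Endothelium (6 genes; sums 0.619 to 1.34, 0.963 to 1.84 and 0.391 to 0.717) had 4 called higher and 1 lower, macrophages and dendritic cells (7 genes; 14.2 to 83.7, 38.2 to 152 and 23.5 to 51.9) had 3 higher and 2 lower, and fibroblasts (6 genes; 2.56 to 42.5, 7.44 to 48.8 and 1.16 to 6.60) had 2 called higher in FL-shGFP against NL-shGFP. The members that rose in FL-shGFP against NL-shGFP and fell in FL-shAlpl against FL-shGFP, such as Angptl4, Pdk4, Vnn1 and Pex11a, moved on the same side as the surface and T cell markers, and Bdh1, Eci1 and Hadh on the side of the stem cell markers. Within FL-shGFP, surface sums were 4816, 5022, 3761, 5358 and 2414 in replicates 1 to 5. T and NK sums were 40.4, 54.1, 23.2, 39.7 and 19.4. Both sums were thus lowest in replicates 3 and 5. Those replicates were the 2 highest of the group for 18 members, Angptl4 and Pdk4 among them. They were the 2 lowest for 7 members, Slc25a20 and Acadl among them. The part of these markers in the results was not tested. Adipocyte markers summed to 2.08 to 5.45, 7.03 to 12.7 and 1.66 to 2.54, mostly Cidec and Lipe, and the defining Adipoq and Plin1 reached at most 0.11 and 0.0081 in any library.

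**Figure D5:**
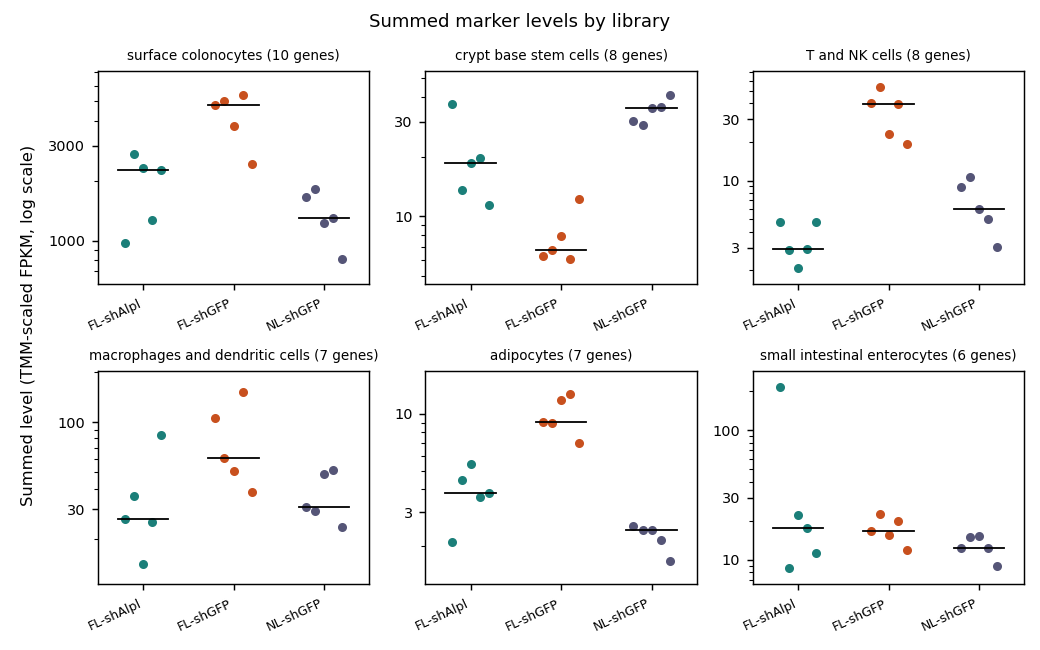
Summed TMM-scaled FPKM of 6 marker lists on log axes in the 5 libraries of each group (points), with the group median (line). T and NK cell sums are at least 19.4 in every FL-shGFP library and at most 10.7 in every other, and 1 FL-shAlpl library stands out for small intestinal genes (214, of which Fabp6 gives 210.5).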

How the data were processed

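RNA-seq of colonic crypts was analysed in 15 libraries, 5 per group as the labels give them. The authors deposited integer read counts per gene and FPKM for all libraries, and no value column lacked a sample. Reads were aligned with HISAT2, per the submitters' processing notes with no version stated. How reads were counted, on which build and annotation and with or without strand, is not given in the sources used here. Within each gene, deposited FPKM held the same reads as the counts, scaled by gene length and library size (ratio constant to 1.40e-06).

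The members, lists and markers were chosen with earlier results of these data known. Counts of 17404 genes that passed filterByExpr entered 1 quasi-likelihood fit over all libraries (edgeR 4.0.16 in R 4.3.3, TMM scaling, robust option, 1 mean per group, 12 residual degrees of freedom), tested two-sided with Benjamini-Hochberg adjustment over all genes at 0.05. 15535 genes were not tested. The common biological coefficient of variation was 30.2%, so the spread between libraries limits most members more than depth. NL-shGFP replicates 3 and 4 were the closest pair (median chi-square per fragment 0.810, above the 0.5 set for 1 library deposited 2 times), so all 15 were kept. The code was tested on simulated counts.

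Every library's value is printed for regulators, for members called in at least 2 comparisons and for members called with an absolute log2 fold change of at least 1; Acot1 and Acads were added after their values were seen. Up to 6 other pathway genes per comparison were named by adjusted p. Alternatives were RLE factors, library totals, other filters, DESeq2 1.42.0, limma 3.58.1 on log2(FPKM + 1) and log2(FPKM + 0.1), only the 2 groups compared, a replicate block, close NL-shGFP pairs summed, no mitochondrially encoded genes, and each library left out. Promoters came from RefSeq (GRCm38.p6). Protein identities of paralogs were not analysed here, and shared 50-base runs of transcripts were counted instead. Figures used Python 3.11.15 and matplotlib 3.10.9.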

Additional observations from a re-analysis of the deposited data

Results flagged for a closer look

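In 5 of the 117 groups of 5 libraries examined (39 members in 3 groups), 1 library lay far from the other 4, and chance gives this in about 1 in 20 groups. Ppara was 2.49 in FL-shAlpl replicate 3, against 1.37 to 1.66 in the other 4. Ucp2 was 62.1 in FL-shAlpl replicate 4, against 44.9 to 48.9. Ehhadh was 11.7 in FL-shAlpl replicate 1, against 13.9 to 14.4. Etfa was 56.3 in FL-shGFP replicate 4, against 70.4 to 75.4. Acot2 was 0.663 in NL-shGFP replicate 4, against 1.15 to 1.34. Levels are TMM-scaled FPKM.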

How the results depend on the processing

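No called member reversed under any alternative. The number of members called was 18, 15 and 8 (FL-shGFP against NL-shGFP, FL-shAlpl against FL-shGFP, FL-shAlpl against NL-shGFP). With 1 library left out it ran from 16 to 20, 12 to 15 and 5 to 13. In FL-shAlpl against NL-shGFP it became 14 with library totals alone, 5 with no filter, 13 with only the 2 groups compared, and 3 with both close NL-shGFP pairs summed; the cause was not tested. Library totals alone put the median log2 fold change of all genes in that comparison at 0.19, against 0.05 with TMM factors, and raised the higher share of all calls to 75.0%, against 53.4%, and in FL-shGFP against NL-shGFP to 65.8%, against 53.8%. Without FL-shGFP replicates 3 and 5, chosen after seeing the data, the higher share of the members' calls was 65.0%, against 83.3%, in FL-shGFP against NL-shGFP. Deviations of same-numbered libraries of different groups correlated at -0.35 to 0.33. Libraries with different numbers were not compared, so a pairing by number is not excluded. A replicate block gave 16, 13 and 7 calls. Depth limits Angptl4 and Fabp1 in NL-shGFP, where counts were low, and Cd36 in all groups. The labels give no batch.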

Other observations

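Acadm, the medium-chain dehydrogenase, had the most even levels of the members within a group: 22.1 to 22.3 TMM-scaled FPKM over the 5 FL-shGFP libraries, against 19.7 to 22.0 in NL-shGFP, with no overlap and no call (log2 fold change 0.11 ± 0.11, edgeR adjusted p = 0.449). Cyp4a10, a PPAR alpha target of mouse liver named after its values were seen, did not pass the filter on low counts, and averaged 0.00322 in FL-shAlpl, 0.439 in FL-shGFP and 0 in NL-shGFP, with every FL-shGFP library above every other. FL-shAlpl replicate 1 had a Fabp6 level of 210.5, while every other library was at or below 21.6.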
